A study of Mus musculus with 12 samples.

Results

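The circadian clock genes described here are 10 genes of the daily transcription loop: the activators Arntl and Clock, the repressors Per1, Per2, Per3, Cry1 and Cry2, the nuclear receptors Nr1d1 and Nr1d2, and the output factor Dbp. They were chosen by name, all 10 were found among the 17718 genes of the count table, and all 10 passed the filter on low counts together with 13013 genes in all. Arntl is the older symbol of Bmal1. Messenger RNA was measured by bulk RNA-seq in CT26, a transplantable colon carcinoma line of BALB/c mice, grown untreated in serum-containing medium. Of the 12 samples of the series, 6 are used: 3 libraries of Mll3 wild-type cells (WT) and 3 of Mll3 knock-out cells (Mll3KO), where Mll3 is the older symbol of Kmt2c, whose product methylates lysine 4 of histone H3. The wild-type libraries are named by replicate number and the knock-out libraries by their column headings, sg1, sg2 and sg3. The sources used here do not say whether the knock-out cells were a clone or a pool, which guide each column stands for, whether the cells were synchronised, or at what hour they were collected.

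In the mammalian clock, the CLOCK and BMAL1 proteins bind E-box sequences as a pair and switch on the Per and Cry genes, whose proteins accumulate, enter the nucleus and repress that pair. A further loop runs through REV-ERB alpha and beta, encoded by Nr1d1 and Nr1d2, which repress Arntl at sites that the ROR receptors activate. Dbp is a bZIP factor switched on by CLOCK and BMAL1 that activates D-box sequences, where NFIL3 acts as its antagonist. Because the levels of many of these transcripts rise and fall through the day in synchronised cells, a single collection gives their level at one moment and neither phase nor amplitude. MLL family methyltransferases have been described as partners of the clock at rhythmic promoters in mouse cells.

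Clock elements of 4 kinds were looked for in promoter windows from RefSeq (GRCm38.p6) that run from 250 bases before to 50 bases after the transcription start. These were the E-box CACGTG, the related E-prime box CACGTT, the ROR and REV-ERB half-site AGGTCA and the D-box TTANGTAA, each read on both strands, and the cyclic AMP element TGACGTCA was added. The table held windows for 9 of the 10 genes, 13 windows in all because several genes have more than 1 start. No window was available for Per2, so its promoter was not searched. The first 4 sequences below are the 250 bases before the start, shown for Per1, Per3 and Cry1 because these genes changed in the knock-out in different directions, and for the repressor gene Ciart because its E-boxes lie close together. The stretch for Arntl is 30 bases that lie shortly after its later start and hold its half-site. Capitals mark the element found, and each line reads 5′ to 3′ on the strand of the gene.
Per1 (chr11:69098699-69098948, plus strand, E-box and half-site): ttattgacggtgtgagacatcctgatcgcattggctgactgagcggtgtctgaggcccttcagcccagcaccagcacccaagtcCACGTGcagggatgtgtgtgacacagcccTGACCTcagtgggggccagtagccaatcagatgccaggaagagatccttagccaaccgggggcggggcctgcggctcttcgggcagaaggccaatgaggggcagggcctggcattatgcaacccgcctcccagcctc
Per3 (chr4:151044666-151044915, minus strand, D-boxes): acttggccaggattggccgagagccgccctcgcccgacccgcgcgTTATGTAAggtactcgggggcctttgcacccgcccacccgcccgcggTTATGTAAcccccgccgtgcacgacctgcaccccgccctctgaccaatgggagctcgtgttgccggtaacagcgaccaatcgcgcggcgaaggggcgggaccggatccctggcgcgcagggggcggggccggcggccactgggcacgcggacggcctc
Cry1 (chr10:85185055-85185304, minus strand, E-prime box and E-box): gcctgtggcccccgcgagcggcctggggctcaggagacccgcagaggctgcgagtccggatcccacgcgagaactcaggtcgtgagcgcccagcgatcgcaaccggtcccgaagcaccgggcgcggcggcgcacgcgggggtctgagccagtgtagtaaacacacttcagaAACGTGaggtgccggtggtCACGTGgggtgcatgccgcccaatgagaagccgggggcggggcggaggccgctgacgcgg
Ciart (chr3:95882229-95882478, minus strand, E-boxes): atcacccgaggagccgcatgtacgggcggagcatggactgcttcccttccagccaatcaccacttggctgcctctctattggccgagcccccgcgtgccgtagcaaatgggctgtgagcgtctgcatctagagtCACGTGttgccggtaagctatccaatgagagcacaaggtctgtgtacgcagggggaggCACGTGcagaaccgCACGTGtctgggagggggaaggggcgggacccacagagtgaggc
Arntl (chr7:113207531-113207560, plus strand, half-site): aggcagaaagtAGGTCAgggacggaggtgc

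Among the 13 windows the E-box was found in 2, the first of the 2 Per1 windows (166 to 161 bases before its start) and that of Cry1 (60 to 55 bases before). It was present in 7.15% of the 32851 windows of the whole table. The E-prime box was found in the windows of Cry1, Cry2 and Nr1d1, against 4.68% of all windows. The Per3 window held 2 copies of the D-box, starting 205 and 158 bases before the start, and no other of the 13 windows held one, against 2.32% of all windows. The half-site, a short motif present in 16.3% of all windows, was found in 4 of the 13. These were 1 of 2 windows of Per1, 1 of 2 of Arntl, 1 of 3 of Clock and the single window of Nr1d2. For Arntl it lay 32 to 37 bases after the later start. The cyclic AMP element was found in 0 of the 13 windows, against 1.79% of all. Dbp had none of these elements in its window. A match is a description of the letters and does not show that a factor binds there.

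**Figure D1:**
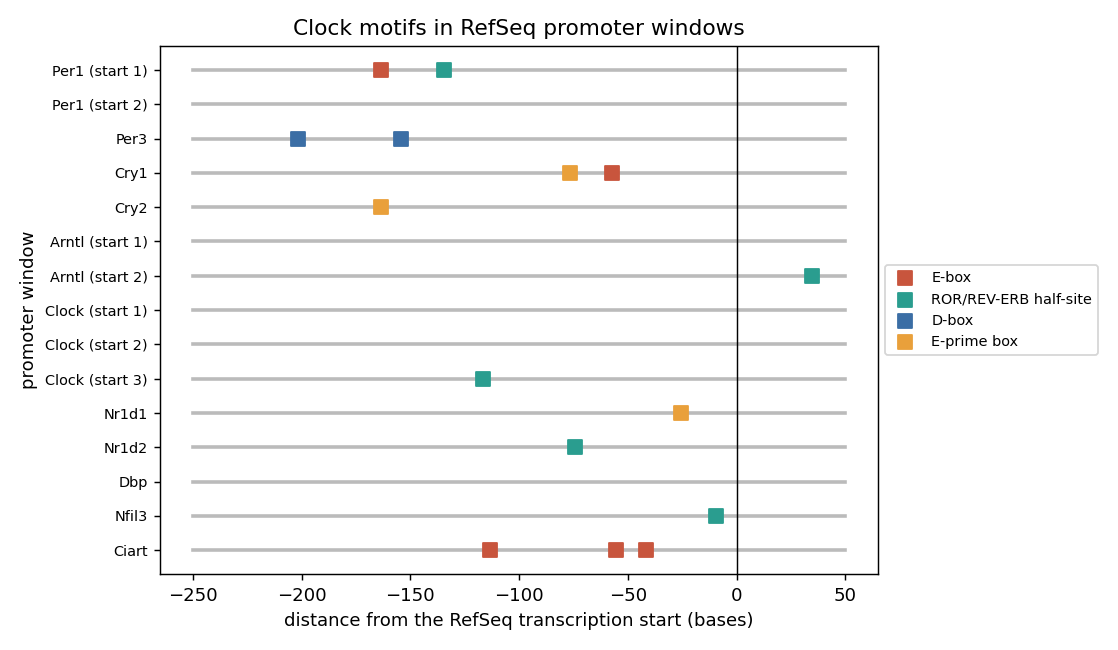
Position of clock motifs in RefSeq promoter windows of 9 clock genes and of Nfil3 and Ciart, as distance in bases from the transcription start (vertical line), with 1 row per start. Squares mark motifs by kind. Per3 holds 2 D-boxes, Ciart 3 E-boxes, and Dbp none of the elements.

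Total counts ran from 9559658 to 13406013 per library. Levels are given as CPM, counts brought to a common library size and corrected with TMM factors, and by library size alone 1 count equals 0.0746 to 0.105 CPM. Wild-type replicate 3 stood somewhat apart, differing from the other wild-type libraries by 2.71 and 3.04 times the variance of counting alone, against 2.13 to 2.32 for the other pairs. The targeted gene Kmt2c read 24.9, 26.2 and 25 CPM in wild-type replicates 1, 2 and 3 and 16, 11.2 and 14.8 CPM in sg1, sg2 and sg3, lower in every knock-out library (log2 fold change -0.87, SE 0.129, edgeR adjusted p = 4.33e-08). Of the epithelial markers, Krt18 rose (log2 fold change 1.51, edgeR adjusted p = 2.37e-27). Krt8 rose from 1 or 2 counts per wild-type library to 16, 37 and 25 in sg1, sg2 and sg3 (edgeR adjusted p = 7.48e-08). Vil1 had 1 to 6 counts per library, and Cdh1, Epcam, Krt19 and Cdx2 were not found by symbol in the count table. The summed level of the 3 of 7 epithelial markers measured ran from 38 to 41.1 CPM for the wild-type and from 107 to 120 CPM for the knock-out, and that of the 5 fibroblast markers from 1010 to 1020 and from 1320 to 1360 CPM. Most of the fibroblast sum was Col1a2, which rose 1.15-fold. Col1a1 rose 2.98-fold, Dcn 2.19-fold and Pdgfra 2.04-fold (edgeR adjusted p under 0.05 for each of the 4). Pdgfrb did not pass (edgeR adjusted p = 0.372). The 3 of 6 immune markers measured summed to 0.323 to 1.22 and 8.65 to 10.7 CPM, and the 2 of 3 endothelial markers to 0.306 to 1.62 and 1.96 to 2.85 CPM. Most of the immune sum was Lyz2, which rose from 0.553 ± 0.307 to 8.80 ± 0.535 CPM (log2 fold change 3.94, SE 0.334, edgeR adjusted p = 1.37e-15). The leukocyte marker Ptprc had 1 count in each wild-type library and 2 to 4 in the knock-out. Most of these markers that could be tested move with genotype, and their part in the clock gene differences was not tested. In bulk RNA, fewer cells expressing a gene and less RNA per cell cannot be told apart.

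In the Mll3 knock-out, 6 of the clock genes were lower and 2 were higher. Arntl, Clock, Cry1, Cry2, Per1 and Per2 fell, by 1.41-fold to 2.56-fold, while Per3 and Dbp rose by 2.86-fold and 2.82-fold. Nr1d1 and Nr1d2 did not pass the threshold. The genotypes differed widely, so these counts are read against a high background: 66.2% of all tested genes passed the same test (edgeR quasi-likelihood test, adjusted p under 0.05), 33.1% higher and 33.2% lower in the knock-out. The groups did not overlap for 8 of the 10 clock genes, against 68.7% of all tested genes, and 3 of the 10 (Arntl, Per3 and Dbp) were called with at least a 2-fold change, against 15.1%. The median log2 fold change of the 10 was -0.61 and their mean -0.17, against a median of 0.0151 over all tested genes. The share of called and that of separated clock genes are thus not far from the background.

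**Figure D2:**
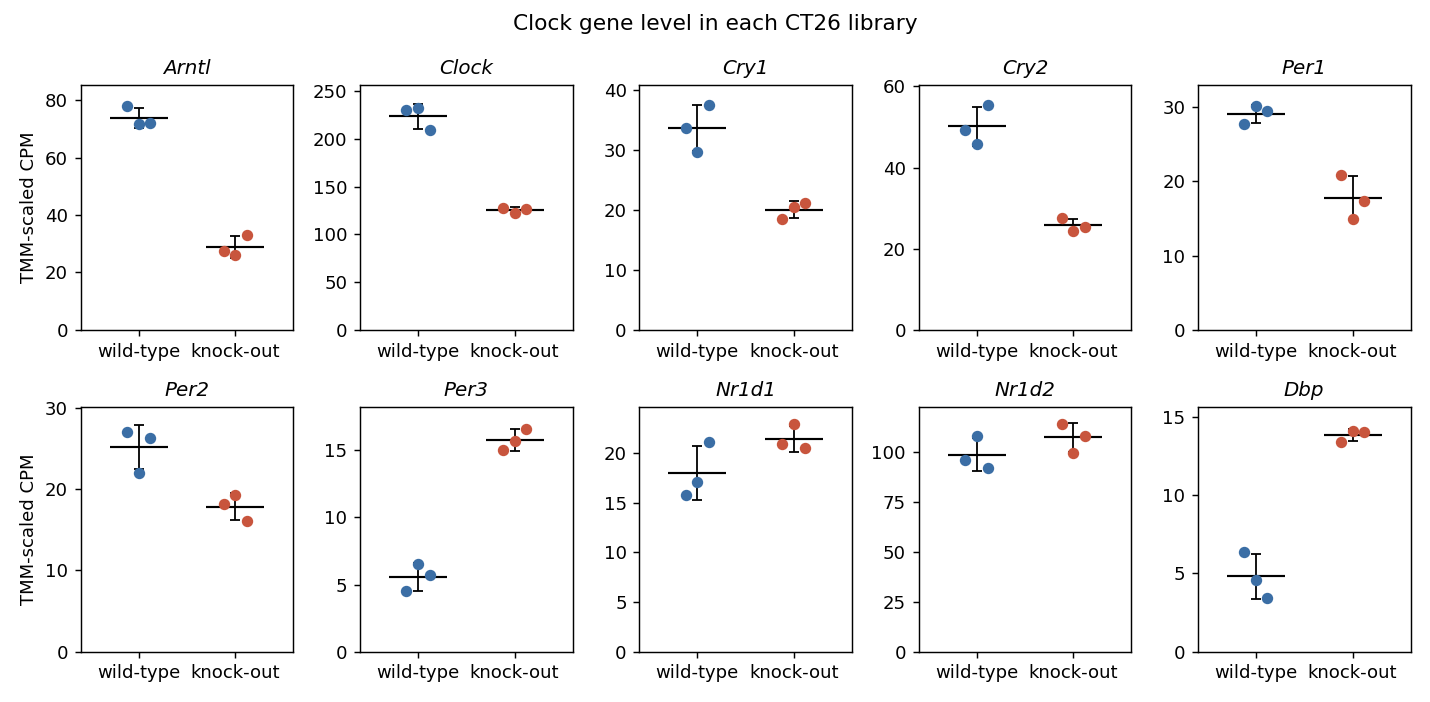
Level of each clock gene in every library, as TMM-scaled CPM on a linear axis from 0 (points: 3 wild-type libraries in blue, 3 knock-out libraries in red; bars: mean and SD). The groups separate for 8 genes and overlap for Nr1d1 and Nr1d2, with Per3 and Dbp the ones that are higher in the knock-out.

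Both activator genes fell. Arntl (ENSMUSG00000055116, chromosome 7, 113178471 to 113314126), which encodes BMAL1, read 77.8, 71.5 and 72.1 CPM in wild-type replicates 1, 2 and 3 and 27.4, 26.2 and 33.2 CPM in sg1, sg2 and sg3. The highest knock-out library, sg3, lay far below the lowest wild-type library. The means were 73.8 ± 3.47 and 29.0 ± 3.77 CPM (SD, n = 3 each), a log2 fold change of -1.35 (SE 0.0830, edgeR adjusted p = 2.94e-21), and 2.21% of all tested genes had a lower value. Clock (ENSMUSG00000029238, chromosome 5, 76209868 to 76305603), the DNA-binding partner of BMAL1, read 230, 232 and 209 CPM in wild-type and 128, 122 and 127 CPM in knock-out libraries. The knock-out libraries lay within a few CPM of each other, and the groups did not overlap. The level fell by 0.83 on the log2 scale (SE 0.0480, edgeR adjusted p = 1.86e-22). With raw counts of 280 to 990 for Arntl and 1308 to 2930 for Clock per library, these are the best counted of the genes that changed.

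The cryptochromes, the repressors that bind CLOCK and BMAL1 directly, both fell. Cry1 (chromosome 10, 85131700 to 85185054) read 33.7, 29.7 and 37.5 CPM in wild-type and 18.5, 20.5 and 21.1 CPM in knock-out libraries (log2 fold change -0.74, SE 0.108, edgeR adjusted p = 2.64e-08). Cry2 (chromosome 2, 92403646 to 92434085) read 49.2, 45.9 and 55.4 CPM in wild-type and 27.6, 24.4 and 25.3 CPM in knock-out libraries. Wild-type replicate 3 was the highest library for both genes. The log2 fold change of Cry2 was -0.96 (SE 0.0921, edgeR adjusted p = 1.06e-13). Its RefSeq span overlaps the long noncoding RNA gene D930015M05Rik over 23417 bases, which also fell (log2 fold change -0.79, SE 0.268, edgeR adjusted p = 0.00845). Arntl and Per2 also overlap long noncoding RNA genes that were not tested, Gm33721 over 18143 bases and Gm35591 over 14768 bases. Whether the counting used strand is not stated, so reads of overlapping genes cannot be assigned with certainty.

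The Period genes did not move the same way. Per1 (chromosome 11, 69095108 to 69109965), a repressor that also responds quickly to hormones and cyclic AMP, read 27.7, 30.1 and 29.5 CPM in wild-type and 20.9, 15 and 17.3 CPM in knock-out libraries. The knock-out libraries were spread more widely than the wild-type ones, with sg1 nearest to wild-type. It fell by 0.72 on the log2 scale (SE 0.117, edgeR adjusted p = 3.82e-07). Per2 (chromosome 1, 91415977 to 91459351), its close paralogue, read 27, 22 and 26.3 CPM in wild-type and 18.1, 19.3 and 16 CPM in knock-out libraries, groups that lie close without overlapping. Its log2 fold change of -0.50 (SE 0.120, edgeR adjusted p = 0.000291) was the smallest of the called clock genes. Tested against a 1.5-fold change rather than against no change, where 20% of all tested genes passed, neither Per1 (glmTreat adjusted p = 0.176), Per2 (1.00) nor Cry1 (0.0978) passed.

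Per3 (ENSMUSG00000028957, chromosome 4, 150997018 to 151044707), the Period gene regarded as least needed for the rhythm in mice, rose. It read 4.48, 6.53 and 5.71 CPM in wild-type replicates and 15, 15.7 and 16.6 CPM in sg1, sg2 and sg3. Each knock-out library was above every wild-type library by a wide margin. The raw counts were 53 to 64 for wild-type and 153 to 182 for knock-out. The span of Per3 shares 4714 bases with the protein-coding gene Uts2, which was not among the tested genes. The log2 fold change was 1.52 (SE 0.174, edgeR adjusted p = 4.04e-11), and 4.96% of all tested genes had a higher value. The promoter of Per3 is the one with the paired D-boxes printed above, and whether they bear on the rise was not tested.

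Dbp (ENSMUSG00000059824, chromosome 7, 45705100 to 45710203), the D-box activator, rose as well. It read 6.36, 4.59 and 3.45 CPM in wild-type and 13.4, 14.1 and 14 CPM in knock-out libraries. The wild-type libraries were spread over 32 to 81 raw counts, with replicate 3 the lowest, while the knock-out libraries lay close together at 137 to 163 counts and above all of them. The log2 fold change was 1.50 (SE 0.189, edgeR adjusted p = 6.43e-10). The span of Dbp shares 741 bases with Sphk2, a sphingosine kinase gene, which fell (log2 fold change -0.59, SE 0.0874, edgeR adjusted p = 4.23e-08).

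The REV-ERB genes, repressors of Arntl, did not pass the threshold. Nr1d1 (chromosome 11, 98767932 to 98775377) read 15.8, 17.1 and 21.1 CPM in wild-type and 20.9, 22.9 and 20.5 CPM in knock-out libraries, and wild-type replicate 3 fell among the knock-out libraries. Its log2 fold change was 0.26 (SE 0.126, 95% interval 0.0071 to 0.512 before adjustment, edgeR adjusted p = 0.0650). Without wild-type replicate 3 it was 0.37 and passed (adjusted p = 0.0108). Nr1d1 shares 1075 bases with Thra, the thyroid hormone receptor gene on the opposite strand, which rose (log2 fold change 0.67, SE 0.137, edgeR adjusted p = 2.55e-05). Nr1d2 (chromosome 14, 18204056 to 18239106) read 95.8, 108 and 92.0 CPM in wild-type and 114, 99.6 and 108 CPM in knock-out libraries, which overlap. Its log2 fold change was 0.12 (SE 0.0600, 95% interval 0.00191 to 0.242 before adjustment, edgeR adjusted p = 0.0683). It passed without wild-type replicate 2 (0.19, adjusted p = 0.0116) and without sg2 (0.16, adjusted p = 0.0294). With upper-quartile scaling, which moved the median of all tested genes from 0.0151 to 0.172, the values of Nr1d1 and Nr1d2 were 0.42 and 0.28, and with library size alone, where that median was 0.137, they were 0.38 and 0.24. Both genes passed under these scalings. With TMM scaling kept they also passed with a minimum count of 50 (0.29 and 0.15, edgeR adjusted p = 0.0391 and 0.0196). Nr1d1 passed with limma voom as well (0.28, adjusted p = 0.0431). Their calls thus depend on the scaling, the filter and, for Nr1d1, the tool.

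**Figure D3:**
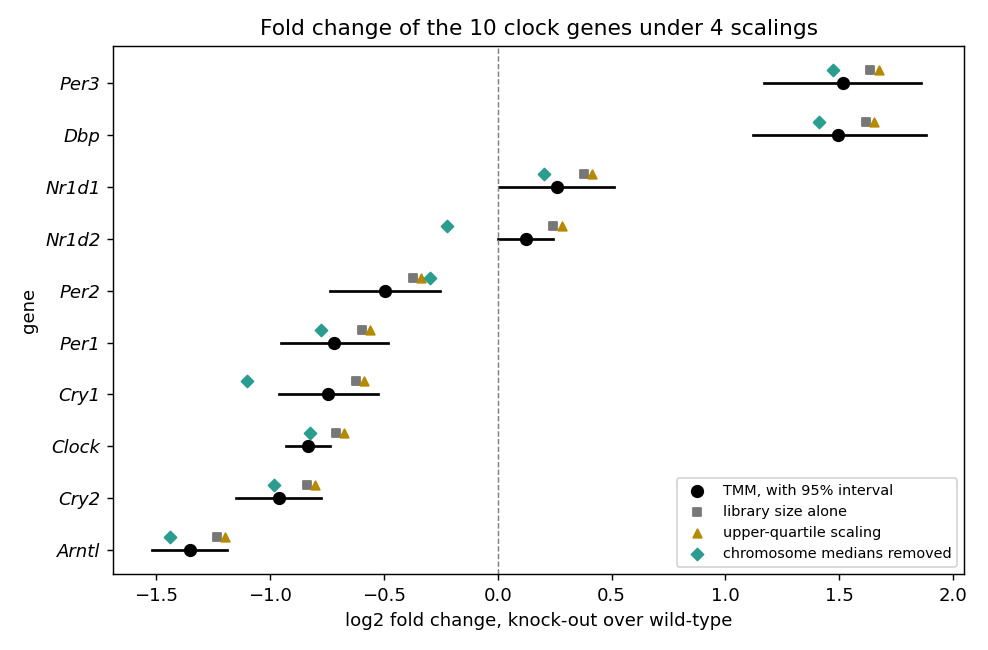
Log2 fold change, knock-out over wild-type, of the 10 clock genes (black: TMM scaling with 95% interval; coloured markers: the same gene with library size alone, upper-quartile scaling or chromosome medians removed). Arntl at -1.35 and Per3 at 1.52 are the ends of the range, and Nr1d2 is the one gene whose marker with chromosome medians removed lies on the other side of 0.

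The median fold change differs between chromosomes in this comparison, and the clock genes were therefore set beside their neighbours. The tested genes of chromosome 10, which holds Cry1, had a median log2 fold change of 0.36, and those of chromosome 14, which holds Nr1d2, 0.34. With chromosome medians removed, Cry1 was at -1.10 and Nr1d2 at -0.22, where it passed on the lower side (edgeR adjusted p = 0.00106). The 119 other tested genes within 5 Mb of Cry1 had a median of 0.49, and the 43 within 5 Mb of Nr1d2 a median of 0.43. Relative to those neighbours Cry1 was at -1.24 and Nr1d2 at -0.30. For the other 8 clock genes the median of the neighbours lay between -0.14 and 0.19, with their own values between -1.35 and 1.52. The 6 genes that fell and the 2 that rose kept their calls when either median was removed. The fall of Per2 was smaller with the median of chromosome 1 (-0.20) removed, at -0.30 (edgeR adjusted p = 0.0277), and relative to its neighbours it was -0.47.

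Ratios of counts between clock genes within one library do not depend on the scaling between libraries. The 6 pairs were compared by a two-sided exact permutation test of the mean log2 ratio, whose smallest possible p with 3 against 3 libraries is 0.10 (0.20 after adjustment over the 6 pairs). The ratio of Dbp to Arntl counts was 0.0818, 0.0642 and 0.0478 in wild-type replicates and 0.489, 0.538 and 0.422 in sg1, sg2 and sg3. It was 7.62-fold higher in the knock-out on average, with no overlap (exact p = 0.10). The ratio of Nr1d1 to Arntl was 0.203, 0.240 and 0.293 in wild-type and 0.761, 0.875 and 0.616 in knock-out libraries, 3.06-fold higher (exact p = 0.10). That of Arntl to Clock was 0.338, 0.308 and 0.346 in wild-type and 0.214, 0.214 and 0.262 in knock-out libraries. It was 1.44-fold lower in the knock-out on average, with no overlap (exact p = 0.10). These 3 ratios reached the smallest p of the design and none passed 0.05.

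The ratios between paralogues overlapped between genotypes. The mean log2 ratio of Per1 to Per2 was 0.219 ± 0.209 in wild-type and -0.0155 ± 0.300 in knock-out libraries (SD, n = 3 each, exact permutation p = 0.50). That of Cry1 to Cry2 was -0.579 ± 0.0442 and -0.362 ± 0.187 (exact p = 0.30), with sg1 at -0.577 inside the wild-type range. That of Nr1d1 to Nr1d2 was -2.46 ± 0.294 and -2.33 ± 0.180 (exact p = 0.50). None of these tests passed, which does not show that the paralogues moved alike. The difference for Cry1 to Cry2 (0.217) was larger than the SD of either genotype, and those of the other pairs were not larger than both.

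**Figure D4:**
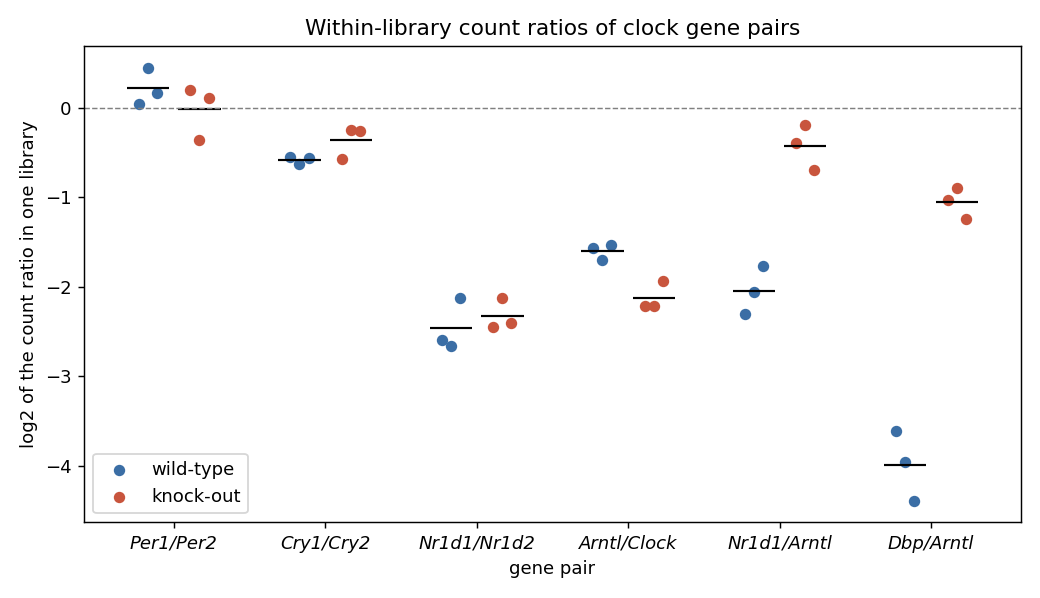
Log2 ratio of raw counts of 6 clock gene pairs in each library (blue: wild-type, red: knock-out; lines: means of 3 libraries). Dbp/Arntl, Nr1d1/Arntl and Arntl/Clock separate by genotype, and the paralogue pairs Per1/Per2, Cry1/Cry2 and Nr1d1/Nr1d2 overlap.

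The genes whose profile over the 6 libraries was nearest to that of Per3, by root-mean-square distance of centred log2 CPM among 12035 candidates, were C1s1 (0.0691), Capn5 (0.0695) and Gdpd5 (0.0821). Those nearest to Arntl were Gm14005 (0.0638), Zeb2 (0.0672) and Btbd9 (0.0736). The log2 fold changes of these 6 genes were 1.51, 1.41, 1.58, -1.44, -1.37 and -1.32 in that order. All of them share the same 6 libraries and the same contrast, and the likeness is a description.

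Beyond the 10 genes, 44 others of the clock pathway were listed by role, of which 39 were tested. Of these 39, 13 rose, 20 fell and 6 did not pass, with a median log2 fold change of -0.19. The background, for the whole list and for each role below, is 33.1% higher and 33.2% lower genes among all tested. No test of the list or of a role was made. With upper-quartile scaling the median of the list was -0.03 and with library size alone -0.06.

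Transcription factors that share E-boxes and D-boxes with the clock genes moved in both directions, 3 of 5 higher and 2 lower. Nfil3, the repressor that competes with DBP at D-boxes, read 130, 127 and 131 CPM in wild-type and 32.7, 31.5 and 30.0 CPM in knock-out libraries. It was 4.12-fold lower, with libraries of each genotype close together (log2 fold change -2.04, SE 0.0666, edgeR adjusted p = 8.62e-34). Dbp and Nfil3, which act in opposite ways on D-boxes, changed in opposite directions in the same libraries. Any effect on genes with D-boxes was not tested. Tef, another activator of the DBP family, rose slightly (0.29, SE 0.0695, edgeR adjusted p = 0.000288), and Hlf, the last of that family, had 9 to 24 counts per wild-type library and 0 to 8 per knock-out library and was not tested.

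Ciart, a repressor of CLOCK and BMAL1 whose promoter holds 3 E-boxes, read 62.2, 61.6 and 54.9 CPM in wild-type and 23.9, 22 and 24 CPM in knock-out libraries (log2 fold change -1.36, SE 0.0883, edgeR adjusted p = 3.47e-20). The E-box repressors Bhlhe40 and Bhlhe41, also known as DEC1 and DEC2, rose instead. Bhlhe41 went from 10.8, 13.2 and 7.76 CPM to 20.2, 23.4 and 23.5 CPM (log2 fold change 1.08, SE 0.146, edgeR adjusted p = 4.33e-09), and Bhlhe40 had a log2 fold change of 0.53 (SE 0.0731, edgeR adjusted p = 7.95e-09). Arntl2, the paralogue of Arntl, rose from 29, 20 and 5 counts in wild-type to 38, 54 and 38 in knock-out libraries (log2 fold change 1.26, SE 0.349, edgeR adjusted p = 0.00130). This is a low level, and wild-type replicate 3 had the fewest counts. Rora, Rorb and the CLOCK paralogue Npas2 were not found by symbol in the count table.

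Of 7 tested enzymes that modify clock proteins, 4 fell, 1 rose and 2 did not pass. Csnk1e, one of the casein kinases that phosphorylate PER proteins, read 186, 199 and 194 CPM in wild-type and 77.6, 71.7 and 76.4 CPM in knock-out libraries (log2 fold change -1.36, SE 0.0527, edgeR adjusted p = 3.21e-30). Its paralogue Csnk1d had 145 ± 5.57 and 150 ± 10.3 CPM (log2 fold change 0.05, 95% interval -0.0546 to 0.150, edgeR adjusted p = 0.419). It passed as higher with upper-quartile scaling (0.21, adjusted p = 0.000324) and library size alone (0.17, adjusted p = 0.00227). Gsk3b, a kinase of several clock proteins, and Fbxw11, a subunit of the ubiquitin ligase for PER proteins, fell with log2 fold changes of -0.90 and -0.60 (edgeR adjusted p = 3.68e-21 and 2.00e-14). Csnk2a1, a kinase of BMAL1, fell by 0.37 on the log2 scale. Usp2, a deubiquitinase of clock proteins, rose from 17 to 20 counts per wild-type library to 34 to 44 per knock-out library (1.10, SE 0.333, edgeR adjusted p = 0.00327). Btrc, the paralogue of Fbxw11, did not pass (-0.17, edgeR adjusted p = 0.192), and Fbxl21 had 0 to 12 counts per library and was not tested.

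Among 14 partners and cofactors, 8 fell, 3 rose and 3 did not pass. The acetyltransferase genes Ep300 and Crebbp, coactivators of CLOCK and BMAL1, fell with log2 fold changes of -0.69 (SE 0.0575, edgeR adjusted p = 7.98e-16) and -0.41 (SE 0.0858, adjusted p = 3.51e-05). Wdr5, a subunit of MLL complexes that is also found with PER proteins, fell by 0.57, and the corepressor Ncor1 of the REV-ERB receptors by 0.36 on the log2 scale. Sfpq, a splicing factor found with PER proteins, and the demethylase gene Kdm5a, a coactivator of CLOCK and BMAL1, fell by 0.31 and 0.37 on that scale. Timeless, best known at replication forks, rose from 20.5, 19.0 and 20.2 CPM to 50.6, 53.8 and 55.9 CPM (log2 fold change 1.42, SE 0.0928, edgeR adjusted p = 3.69e-20), and Ddb1, an adaptor of ubiquitin ligases, rose by 0.41. The calls of Tipin, Hdac3 and Kmt2a depended on the settings. Tipin, the partner of Timeless, had 0.14 (edgeR adjusted p = 0.0428). The call was lost without any one of 4 libraries, wild-type replicates 1 and 2 and sg1 and sg2 (0.15, 0.11, 0.12 and 0.09, edgeR adjusted p = 0.0607 to 0.261). With all libraries kept it was lost with DESeq2 (adjusted p = 0.0877), and in edgeR with no filter (adjusted p = 0.0907) or chromosome medians removed (adjusted p = 0.167). The deacetylase gene Hdac3, on chromosome 18, had -0.19 (adjusted p = 0.00124). It passed in the other direction with chromosome medians removed (0.13, adjusted p = 0.0263) and lost its call with library size alone (-0.06, adjusted p = 0.249) and with upper-quartile scaling (-0.03, adjusted p = 0.620). Of the 3 that did not pass, Sirt1 and Nono passed as lower with chromosome medians removed (-0.41 and -0.10; adjusted p = 0.00221 and 0.0262). Nono passed as higher with upper-quartile scaling (0.13, adjusted p = 0.00245) and library size alone (0.09, adjusted p = 0.0256), and Ezh2 as lower without wild-type replicate 3 (-0.16, adjusted p = 0.0160). Kmt2a, the methyltransferase gene MLL1, had -0.31 (adjusted p = 0.000847), and lost its call with upper-quartile scaling (-0.15, adjusted p = 0.0914).

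Of 12 outputs and inputs of the clock, 5 rose, 6 fell and 1 did not pass. Creb1, the cyclic AMP response factor through which Per1 can be induced, read 111 CPM in all 3 wild-type libraries and 62.7, 60.7 and 61.4 CPM in knock-out libraries (log2 fold change -0.85, SE 0.0600, edgeR adjusted p = 9.79e-19). Genes that glucocorticoids induce did not move together: Sgk1 and Fkbp5 rose by 1.20 and 0.85, and Klf9 and Tsc22d3 fell by 1.00 and 0.77 on the log2 scale, each past the edgeR threshold. The glucocorticoid receptor gene Nr3c1, on chromosome 18, fell by 0.35 (edgeR adjusted p = 4.32e-09) and had -0.04 with chromosome medians removed (adjusted p = 0.509). Wee1, a cell cycle kinase gene that CLOCK and BMAL1 activate in mouse liver, rose by 0.59, and Nampt, the rhythmic enzyme of NAD synthesis, fell by 0.36 on the log2 scale. Klf10 rose by 0.43 and Sik1 by 0.53, the latter losing its call without sg2 (0.33, adjusted p = 0.117). Crem fell by 0.92, and Dusp1 did not pass (-0.08).

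**Figure D5:**
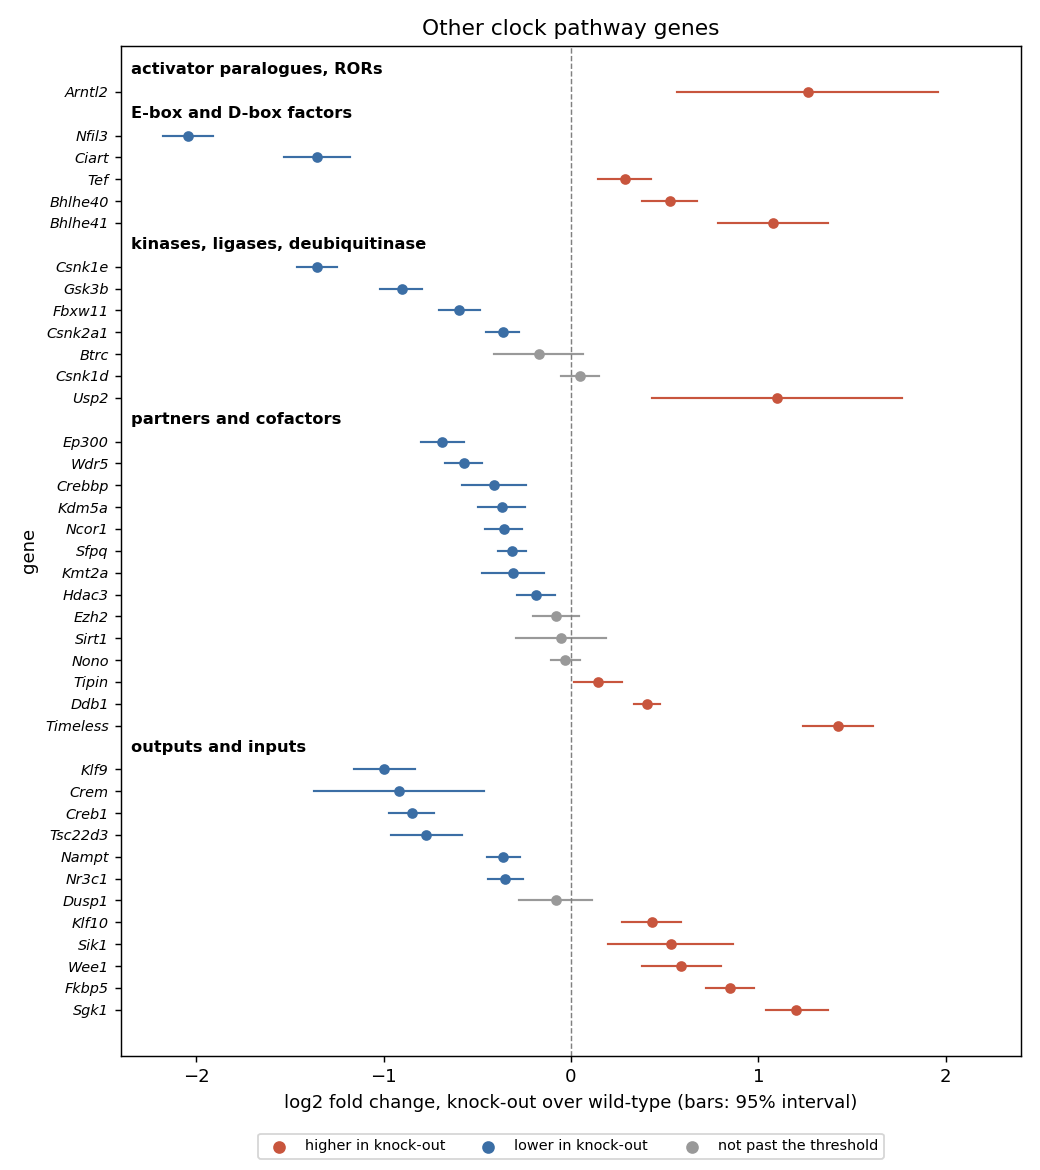
Log2 fold change, knock-out over wild-type, of 39 other clock pathway genes by role, with 95% intervals (red: higher, blue: lower, grey: not past the edgeR threshold). Nfil3 at -2.04 is the lowest and Timeless at 1.42 the highest.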

How the data were processed

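The values are raw counts of reads per Ensembl gene, whole numbers as deposited by the authors. The RNA was polyA-selected and the libraries keep strand, per the labels, with 1 batch date for all 6. The tools SEACR, deepTools, Bowtie2, HTSeq, STAR and fastp and the build mm10 are named in the submitters' processing notes, without roles or versions. Which annotation and strand option the counting used is not stated. Each deposited gene is above 0 in at least 3 libraries. Symbols matched 17650 of 17718 identifiers, and positions and promoters are from RefSeq on GRCm38.p6, matched by symbol.

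Genes were kept with filterByExpr (minimum count 10, total 15), scaled with TMM and tested with edgeR 4.0.16 (limma 3.58.1, R 4.3.3), robust quasi-likelihood F test, with Benjamini-Hochberg adjustment over 13013 genes. Fold changes are given for knock-out relative to wild-type, SE come from the F statistic, and CPM is TMM-scaled. Likeness of profiles used log2(CPM + 0.5) and genes with a mean log2 CPM of at least 1. The pipeline was tested on simulated data. The 10 genes, the other lists and the tests were chosen with earlier results of these data known. The text names all 10, the target Kmt2c, the 3 genes nearest to the most raised and most lowered one, and listed pathway genes, including the 3 with the smallest p per list. Overlapping genes and individual cases of unstable calls were chosen after their values were seen. The labels do not say whether the libraries of a genotype are separate cultures, so the p-values reflect only library-to-library spread, which may be technical. CUT&Tag and single-cell samples are not analysed here, and some genes of the pathway lists are not reported here.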

Additional observations from a re-analysis of the deposited data

How the results depend on the processing

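The 6 clock genes that fell and the 2 that rose did so under RLE, upper-quartile and library-size scaling, both other filters, DESeq2 1.42.0, limma voom, removal of the 50 most abundant genes, no robust estimation, an adjusted p of 0.01, removed chromosome medians and every library left out. The exception was glmTreat against a 1.5-fold change, which kept 3 of the 6 falls. The count of higher clock genes was 4 with library size alone, a minimum count of 50 or upper-quartile scaling, since Nr1d1 and Nr1d2 then passed. It was 3 with limma voom, where Nr1d1 passed, and without wild-type replicate 2, wild-type replicate 3 or sg2. Removal of region medians, chosen after seeing the data, left 2 higher and 7 lower. Under glmTreat, 1448 genes of all tested were higher and 1154 lower, and 5 and 7 of the other pathway genes. Among all calls 49.9% were higher, a share that library-size scaling moved to 60.5% and upper-quartile scaling to 63.7%.

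Signs turned for Nr1d2 with chromosome (-0.22) and region medians removed (-0.30). With chromosome medians removed they also turned for Csnk1d (-0.00949) and Hdac3 (0.13). With upper-quartile and library-size scaling they turned for Nono (0.127 and 0.0910), Sirt1 (0.103 and 0.0673), Ezh2 (0.0762 and 0.0404) and Dusp1 (0.0760 and 0.0401). Nono was 0.00102 with the minimum count of 50. With each library left out in turn, Csnk1d ranged from -0.0228 without sg2 to 0.0766 and Sirt1 from -0.135 to 0.0770 without wild-type replicate 2. The cause was not tested. No paired analysis was possible because the knock-out columns carry no replicate number that the labels explain. Depth limits the genes with few counts per library, among them Dbp and Per3 in wild-type, Crem in the knock-out, and Arntl2, Usp2, Hlf and Fbxl21.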
